A study of Mus musculus with 10 samples.

Results

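The actin cytoskeleton of hippocampal microglia was followed through 10 genes that steer it: *Dock1*, *Dock2*, *Dock4*, *Dock5*, *Dock8*, *Dock10* and *Dock11*, their partner *Elmo1*, the scaffold *Dnmbp* and the actin regulator *Carmil1*. They are 10 of 55453 genes in the deposited count table. The genes were selected on measured values of the same libraries, because *Dock8*, *Dnmbp* and *Carmil1* ranked near the top of the comparison of treatments, and family members and partners were added by name. Their differences between treatments are therefore given as a description without a test.

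The 10 RNA libraries were made from CD45int CD11b+ microglia, sorted out of the hippocampus of 3xTg AD females more than 15 months old. All libraries share the 3xTg genotype, whose transgenes include human genes with the APP Swedish and MAPT P301L mutations, driven by the Thy1.2 promoter of neurons. Mice of 5 libraries received glatiramer acetate (GA), a polypeptide drug used in multiple sclerosis, at a weekly 0.1 mg for about 8 weeks, and mice of the other 5 received PBS. Library titles carry a prefix whose meaning the labels do not state: all 5 PBS libraries have 388, 2 GA libraries have 394 and 3 GA libraries have 400. Prefix and treatment cannot be told apart between GA and PBS, whereas 394 and 400 can be compared within GA.

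DOCK proteins are large guanine nucleotide exchange factors that load GTP onto the small GTPases Rac and Cdc42 through a DHR-2 domain, unlike the larger Dbl group, which uses a DH domain. DOCK-A and DOCK-B proteins activate Rac and bind the scaffold ELMO1, and DOCK-C and DOCK-D proteins act on Cdc42, on Rac or on both. Active Rac and Cdc42 drive actin polymerization through the WAVE and WASP proteins and the Arp2/3 complex, and in microglia this machinery moves the surveying processes and closes the phagocytic cup.

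The libraries held 32332185 to 38764643 counts. The microglial marker list summed to 56329 to 66547 CPM in PBS and 57258 to 62208 CPM in GA libraries, with 0 of its 10 genes at 0 in all libraries. Neutrophil markers summed to 36.1 to 425 CPM in PBS and 9.76 to 161 CPM in GA. Border-associated macrophage markers summed to 49.0 to 273 CPM in PBS and 52.6 to 204 CPM in GA, and monocyte markers to 33.5 to 89.0 CPM in PBS and 36.5 to 49.9 CPM in GA. T and NK cell markers stayed at or below 2.80 CPM in every library. In bulk RNA, fewer cells of a type and less RNA per cell cannot be told apart. The labels do not state that each library came from a separate mouse, so *P*-values measure the spread between these libraries.

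*Dock8* and *Dnmbp* both lie on chromosome 19, and the 250 bases before their annotated starts are shown because both genes were lower in every GA library than in every PBS library. *Dock2*, the haematopoietic Rac activator, is shown beside them because its groups overlapped. The windows are from the RefSeq promoter table, build GRCm38.p6, read 5′ to 3′ on the strand of the gene: *Dock8* at chr19:24999279-24999528 on the plus strand, *Dnmbp* at chr19:43940199-43940448 on the minus strand and *Dock2* at chr11:34783906-34784155 on the minus strand. Capitals mark matches on either strand to the ETS-type core GAGGAA, written TTCCTC on the other strand, or to the GC box GGGCGG, written CCGCCC on the other strand.
Dock8: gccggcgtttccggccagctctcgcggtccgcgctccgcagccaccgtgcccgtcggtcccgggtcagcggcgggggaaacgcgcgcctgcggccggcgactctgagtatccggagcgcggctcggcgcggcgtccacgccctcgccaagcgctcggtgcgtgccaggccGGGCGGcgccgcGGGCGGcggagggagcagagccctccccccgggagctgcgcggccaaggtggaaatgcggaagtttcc
Dnmbp: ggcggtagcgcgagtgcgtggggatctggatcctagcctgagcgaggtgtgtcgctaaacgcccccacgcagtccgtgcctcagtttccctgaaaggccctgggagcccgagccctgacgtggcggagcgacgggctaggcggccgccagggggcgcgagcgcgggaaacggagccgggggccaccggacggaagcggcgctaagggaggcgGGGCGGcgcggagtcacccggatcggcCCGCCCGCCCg
Dock2: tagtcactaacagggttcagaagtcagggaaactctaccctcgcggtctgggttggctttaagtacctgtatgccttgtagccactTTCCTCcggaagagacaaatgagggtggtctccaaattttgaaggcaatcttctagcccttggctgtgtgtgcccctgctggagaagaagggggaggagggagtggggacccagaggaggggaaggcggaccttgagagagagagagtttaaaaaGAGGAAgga

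The *Dock8* window held 2 GC boxes and the *Dnmbp* window 3, of which 2 overlap, and neither held GAGGAA. The *Dock2* window held 2 matches to GAGGAA and 0 GC boxes. The first windows of *Dock1*, *Dock4*, *Dock10*, *Dock11* and *Elmo1*, whose groups overlapped, held 2 to 3 GC boxes each, and a second *Dnmbp* window held 0. Of 32841 windows of the same length in the table, 32.7% held a GC box and 23.3% held GAGGAA. The longer form GAGGAAGT, which contains GAGGAA and is the form associated with the myeloid factor PU.1, was in 2.44% of windows and in 0 of the 3 printed here. GC content was 77.6% before *Dock8*, 74.4% before *Dnmbp* and 52.8% before *Dock2*, against a median of 52.4% over all windows. The table held a window for 8 of the 10 genes, and *Carmil1* and *Dock5* had no entry. These matches describe letters in a window, no binding was measured and a link to levels was not tested.

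The genes differed widely in level. On the RPKM scale, which divides reads by library size and by the summed length of all annotated exons, the order over the 10 libraries was *Dock8* (mean 60.9 RPKM), *Elmo1* (53.9), *Dock2* (41.8), *Dock10* (27.3), *Dock4* (13.97), *Dock11* (11.97), *Dock1* (5.20), *Dnmbp* (4.12), *Carmil1* (1.66) and *Dock5* (0.0119). Within the PBS libraries, the level of *Dock8* lay at percentile 96.2 of tested genes, that of *Elmo1* at 95.1 and that of *Dock2* at 93.4. *Dock1* at percentile 53.6 and *Dnmbp* at 51.7 sat near the middle, and *Carmil1* at 30.1 in the lower part.

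Each pair of neighbours in that order was compared within libraries on log2 (RPKM + 0.1), and all 9 pairs differed (two-sided exact sign-flip permutation test, adjusted *P* of 0.0293 or smaller over 9 pairs). The order came from the same libraries, and each *P* covers their spread and not the choice of gene length. With this length and all 10 libraries the closest pair was *Dock8* over *Elmo1*, by 0.17 on the log2 scale in 9 of 10 libraries (exact permutation test, adjusted *P* = 0.00502). *Dock4* lay 0.21 above *Dock11* in 8 of 10 libraries (exact permutation test, adjusted *P* = 0.0293, and 0.0508 to 0.0586 without 388_1, 388_2, 388_3, 394_2 or 400_3), and *Dock1* lay 0.33 above *Dnmbp* in 9 of 10 (exact permutation test, adjusted *P* = 0.0220). Because *Dock8* and *Dnmbp* were selected for being lower and *Carmil1* for being higher in GA, the gaps of pairs that hold them include that choice. *Dnmbp* lay 1.28 above *Carmil1* in all 10 libraries and 1.67 in PBS libraries alone. *Carmil1* lay 3.97 above *Dock5* in all 10 and 3.68 in PBS libraries alone. In PBS libraries alone *Dock8* lay 0.27 above *Elmo1*, *Dock4* 0.20 above *Dock11* and *Dock1* 0.11 above *Dnmbp*, so that the last was the closest pair, and no exact permutation test over 5 libraries can give a *P* below 0.0625. These gaps depend on the gene length used. With the longest annotated transcript in place of all exons, *Elmo1* at 124 RPKM stood above *Dock8* at 78.6 RPKM (exact permutation test, adjusted *P* = 0.00251). *Dock2* then stood 0.11 above *Dock10*, where all exons gave 0.61, and *Dock4* stood 1.16 above *Dock11*.

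**Figure D1:**
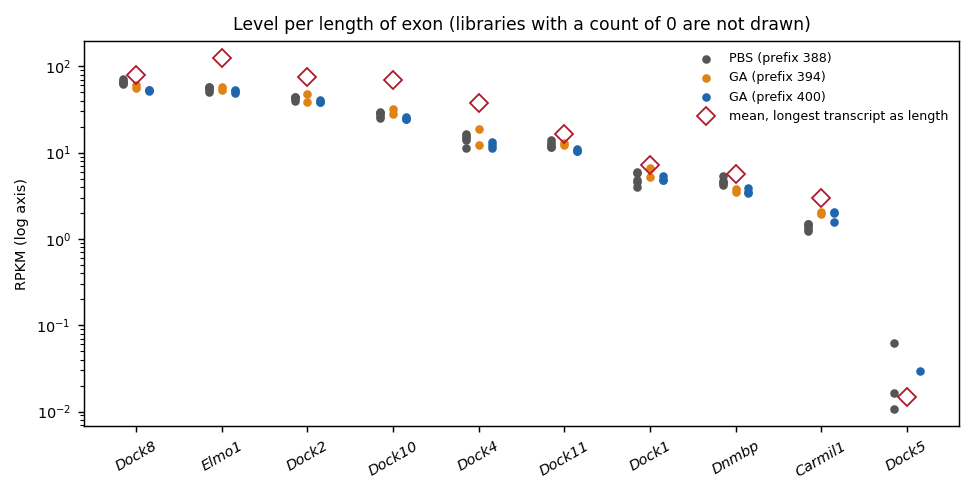
Level of each gene in RPKM on a log axis, with points for the libraries of each title prefix and open diamonds for the mean when the longest transcript gives the length. *Dock8*, *Elmo1* and *Dock2* lie highest and *Dock5* lies far below the others, and the diamonds place *Elmo1* above *Dock8*.

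Shares of the DOCK family were taken over all its genes. Of the summed RPKM of the 11 DOCK genes in the table, *Dock8* of the DOCK-C group made up 37.2% in PBS and 34.0% in GA libraries. *Dock2* of DOCK-A made up 24.0% in PBS and 24.98% in GA, and *Dock10* of DOCK-D made up 15.5% in PBS and 16.5% in GA. *Dock4* of DOCK-B took 8.09% in PBS and 8.22% in GA. With the longest transcript as length the PBS shares were closer together, at 27.4% for *Dock8*, 24.4% for *Dock2*, 22.4% for *Dock10* and 12.4% for *Dock4*, and in GA *Dock2* at 25.1% stood above *Dock8* at 24.7%. With all exons the sum was 178 ± 4.83 RPKM in PBS and 163 ± 14.8 RPKM in GA (SD, n = 5 each). *Dock8* was selected for being lower in GA, so the GA shares and the GA sum include that choice.

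Among the Rac activators that work with ELMO1, *Dock2* is the form of blood cells, required for the migration of lymphocytes and neutrophils. It lies at chr11:34226815-34783892 (GRCm38, minus strand), and an antisense gene shares 460 of its exon bases. Levels here and below are CPM scaled by TMM normalization factors. *Dock2* measured 503, 495, 459, 493 and 499 CPM in PBS libraries 388_1 to 388_5. In GA it measured 442 and 540 CPM in 394_1 and 394_2, and 437, 443 and 468 CPM in 400_1, 400_2 and 400_3. The groups overlapped: 394_2 was the highest of all 10 libraries, 400_3 lay within the PBS range and the other 3 GA libraries lay below it. The log2 difference, GA minus PBS, was −0.07 (SE 0.07, 95% interval −0.22 to 0.07).

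*Dock1*, the ubiquitous engulfment factor first known as DOCK180, lies at chr7:134670654-135173639 on the plus strand. It measured 54.4, 44.97, 42.7, 37.5 and 55.0 CPM in PBS libraries and 61.9, 49.1, 45.4, 50.0 and 44.4 CPM in GA libraries, listed in the same order of titles. The groups overlapped, with 394_1 above all PBS libraries and 388_3 and 388_4 below all GA libraries, at a log2 difference of 0.10 (SE 0.12, 95% interval −0.16 to 0.35). *Dock5*, a Rac activator known from osteoclasts and at chr14:67752135-67933442 on the minus strand, had 5, 0, 25, 0 and 7 reads in PBS libraries and 0, 0, 0, 0 and 14 reads in GA libraries. It did not pass the filter on low counts, and a count of 0 allows up to 3 reads, so no fold is given.

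*Dock4*, a DOCK-B activator of Rac at chr12:40445952-40846874 on the plus strand, had the largest SD of log2 CPM within groups of the 6 tested DOCK genes described here. It measured 354, 378, 337, 261 and 322 CPM in PBS and 278, 425, 261, 279 and 306 CPM in GA libraries. Library 394_2 was the highest of all and 388_4 among the lowest, so the groups overlapped at a log2 difference of −0.09 (SE 0.13, 95% interval −0.36 to 0.18). That SD was 0.24, at percentile 92.5 of genes of like level.

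*Elmo1*, the scaffold that relieves autoinhibition of DOCK-A and DOCK-B proteins, lies at chr13:20090596-20608353 on the plus strand, and an antisense gene shares 403 of its exon bases. It measured 715, 671, 633, 733 and 711 CPM in PBS and 661, 728, 667, 611 and 647 CPM in GA libraries. The highest GA library, 394_2, lay within the PBS range, and the log2 difference was −0.06 (SE 0.06, 95% interval −0.20 to 0.07). Whether counting used the strand is not given in the sources used here, so reads of *Dock2* or *Elmo1* and of their antisense genes may not be separated.

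*Dock8*, the DOCK-C activator of Cdc42 whose loss causes a combined immunodeficiency in humans, keeps migrating leukocytes intact in tight spaces. It lies at chr19:24999534-25202432 on the plus strand. *Dock8* measured 653, 655, 632, 726 and 678 CPM in PBS libraries. In GA it measured 572 and 617 CPM in 394_1 and 394_2, and 528, 540 and 534 CPM in 400_1, 400_2 and 400_3. All 5 GA libraries lay below all 5 PBS libraries, with the 3 libraries of prefix 400 lowest and 394_2 nearest the PBS range. The mean was 669 ± 35.9 CPM in PBS and 558 ± 36.9 CPM in GA (SD, n = 5 each), lower by 16.5%, and the log2 difference was −0.26 (SE 0.06, 95% interval −0.39 to −0.13).

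The DOCK-D genes did not separate in this way. *Dock10*, an activator of Cdc42 and Rac at chr1:80501073-80758527 on the minus strand, measured 537, 520, 462, 526 and 479 CPM in PBS and 518, 588, 448, 471 and 444 CPM in GA libraries. Its log2 difference was −0.03 (SE 0.08, 95% interval −0.21 to 0.14), with the 394 libraries in or above the PBS range and 2 of the 400 libraries below it. *Dock11*, a Cdc42 activator at chrX:35888832-36076562 on the plus strand, measured 107, 108, 119, 129 and 114 CPM in PBS and 114, 120, 96.7, 102 and 96.3 CPM in GA libraries. The 3 libraries of prefix 400 lay below all PBS libraries and the 394 libraries lay within the PBS range, and the log2 difference was −0.12 (SE 0.08, 95% interval −0.29 to 0.05).

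*Dnmbp* encodes Tuba, a Cdc42 exchange factor of the Dbl type that binds dynamin and carries a membrane-curving BAR domain in place of the usual PH domain. It lies at chr19:43846821-43940191 on the minus strand. *Dnmbp* measured 34.8, 37.3, 36.5, 44.1 and 38.3 CPM in PBS libraries and 28.7, 31.3, 28.2, 28.9 and 32.5 CPM in GA libraries. All GA libraries lay below all PBS libraries, with 400_3 the nearest to the PBS range and 388_4 the highest of all. The mean was 38.2 ± 3.55 CPM in PBS and 29.9 ± 1.87 CPM in GA (SD, n = 5 each), lower by 21.7%, at a log2 difference of −0.35 (SE 0.09, 95% interval −0.53 to −0.17). With as few as 957 reads in a library, the counting error of one value was 3.23% or less.

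*Carmil1* encodes a leucine-rich repeat protein that binds capping protein and loosens it from the barbed ends of actin filaments, so that filaments can grow. It lies at chr13:24012344-24280795 on the minus strand. *Carmil1* measured 13.5, 13.4, 10.96, 12.5 and 11.8 CPM in PBS libraries and 18.6, 17.4, 14.3, 18.4 and 17.8 CPM in GA libraries. All GA libraries lay above all PBS libraries, and 400_1 stood closest to the PBS range. The mean was 12.4 ± 1.06 CPM in PBS and 17.3 ± 1.75 CPM in GA (SD, n = 5 each), higher by 38.99%, at a log2 difference of 0.47 (SE 0.11, 95% interval 0.24 to 0.71). It was the least abundant of the 9 tested genes described here, with 359 to 703 reads per library and a counting error of up to 5.28%.

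**Figure D2:**
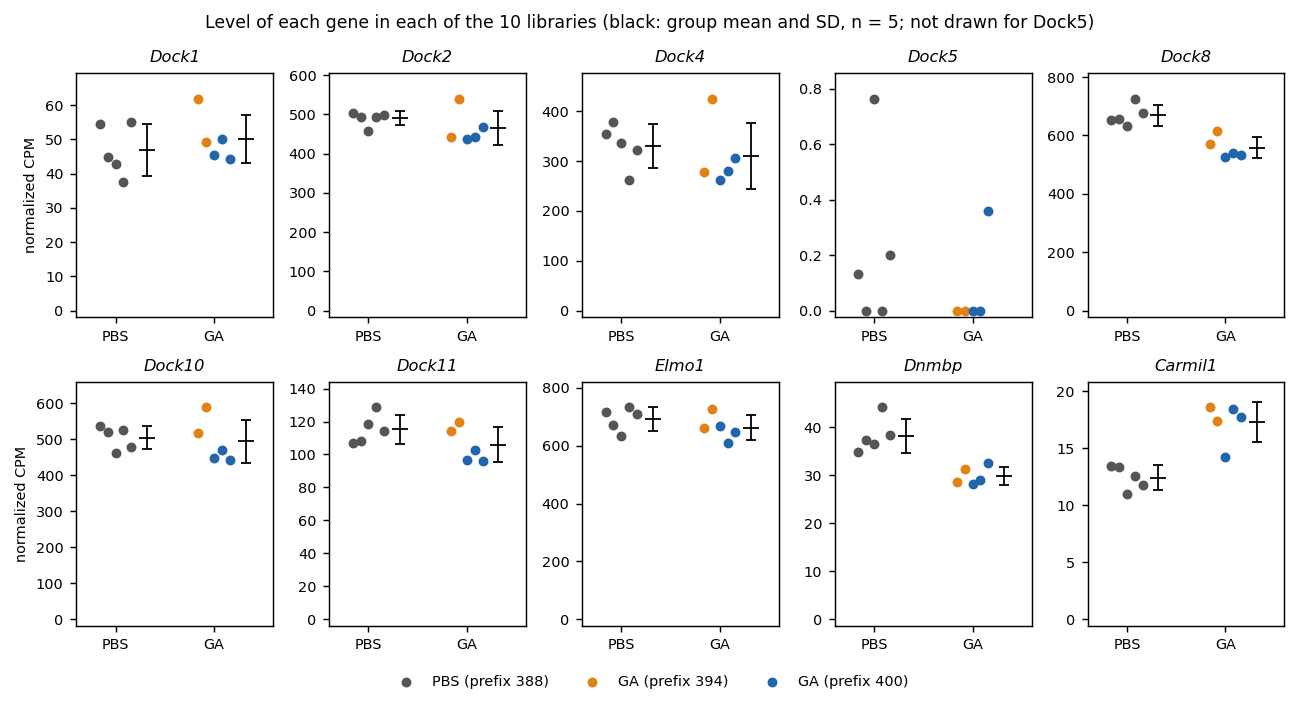
Normalized CPM of each gene in each library, on axes that include 0, with PBS in grey, GA libraries of prefix 394 in orange and of prefix 400 in blue, and the group mean with SD in black. The groups are separate for *Dock8* and *Dnmbp*, lower in GA, and for *Carmil1*, higher in GA, and overlap for the others.

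Of the 9 genes that passed the filter on low counts, 2 were higher and 7 lower in GA. Among all 14481 genes tested, 49.9% were lower. The median log2 difference was −0.07 for the 9 genes and 0.00020 for all genes tested. Count and median include *Dock8*, *Dnmbp* and *Carmil1*, whose directions were fixed by their selection, so neither tests the 9 genes against all genes. Of the genes added by name, *Dock1* was higher (0.10, SE 0.12). *Dock2* (−0.07, SE 0.07), *Dock4* (−0.09, SE 0.13), *Dock10* (−0.03, SE 0.08), *Dock11* (−0.12, SE 0.08) and *Elmo1* (−0.06, SE 0.06) were lower. *Dock10* changed side without 400_1 (0.0065) or 400_3 (0.0053). Over all genes, 0.435% had every GA library above every PBS library, as *Carmil1* had, and 0.456% had every GA library below every PBS library, as *Dock8* and *Dnmbp* had. Ordered by unadjusted *P*, *Carmil1* was gene 7, *Dock8* gene 8 and *Dnmbp* gene 9 of the comparison, which is what selected them. In edgeR's quasi-likelihood test, 0% of genes had an adjusted *P* under 0.05, with 833 genes at an unadjusted *P* under 0.05. DESeq2 called 2 genes and limma-voom 0, and none of the 9 genes described here was called in any fit.

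Neutrophil marker sums had a median of 276 CPM in PBS and 40.4 CPM in GA, with overlapping ranges, and their part in the values above was not tested. Library 388_4 had the highest border-associated macrophage and monocyte sums and also the highest PBS values of *Dock8*, *Dock11*, *Elmo1* and *Dnmbp* and the lowest of *Dock1* and *Dock4*. Library 400_2, with the highest border-associated macrophage sum in GA, had the lowest *Elmo1*. Without 388_4 the log2 difference, GA minus PBS, was −0.23 for *Dock8*, −0.29 for *Dnmbp* and 0.48 for *Carmil1*. The part of border-associated macrophages and monocytes in these values was not tested further.

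Each GA prefix was also set beside the same 5 PBS libraries. For *Dock8*, *Dnmbp* and *Carmil1*, which were selected on separate groups, an equal sign in both prefixes was fixed by that choice. *Dnmbp* differed by −0.34 (SE 0.13) on the log2 scale in 394 and by −0.35 (SE 0.11) in 400. *Carmil1* differed by 0.54 (SE 0.15) in 394 and by 0.44 (SE 0.13) in 400. *Dock8* differed by −0.16 (SE 0.09) in 394 and −0.32 (SE 0.07) in 400. For the other 6 tested genes the fitted difference was above 0 in 394 and below 0 in 400, in part by far less than its SE. *Dock10* differed by 0.14 (SE 0.10) and −0.15 (SE 0.07), *Dock4* by 0.10 (SE 0.17) and −0.22 (SE 0.11), and *Dock11* by 0.03 (SE 0.10) and −0.22 (SE 0.08). *Dock2* differed by 0.0093 (SE 0.10) and −0.12 (SE 0.07), *Elmo1* by 0.010 (SE 0.09) and −0.10 (SE 0.07), and *Dock1* by 0.25 (SE 0.17) and −0.0054 (SE 0.13). For *Dock2*, *Dock4* and *Elmo1* the 394 value rested on 394_2, since 394_1 lay below all PBS libraries for *Dock2* and below 4 of 5 for *Dock4* and *Elmo1*. Against PBS, 7 of the 9 genes were higher and 2 lower in 394, and 1 was higher and 8 lower in 400. These counts include the values near 0. Over all tested genes the median difference from PBS was −0.00035 in 394 and 0.0046 in 400. These comparisons share their PBS libraries, and the difference between them was tested directly.

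That test, of the GA libraries of prefix 400 (n = 3) against 394 (n = 2), was not used to choose the genes. All 9 tested genes were lower in 400, against 48.6% of all genes, and their median log2 difference was −0.15 against 0.0064 over all genes. Of the other DOCK and ELMO genes 4 of 7 were lower in 400, of the DOCK1 adaptors 2 of 7, of the Dbl-type factors 23 of 45, of the WASP and WAVE factors 5 of 14, of the Arp2/3 subunits 1 of 10 and of the capping and CARMIL genes 5 of 12. None of the 9 passed edgeR's quasi-likelihood test at an adjusted *P* under 0.05, where 0.0138% of all genes did. The difference of *Dock10*, from a mean of 553 CPM in 394 to 454 CPM in 400, was −0.28 (SE 0.09, edgeR adjusted *P* = 0.587). That of *Dock11* was −0.25 (SE 0.10, edgeR adjusted *P* = 0.789). At an unadjusted *P* under 0.05 stood 2 of the 9 genes, *Dock10* and *Dock11*, and 5.48% of all genes. Without 394_2 the difference was −0.19 for *Dock10* and −0.21 for *Dock11*, and without 394_1 it was −0.37 and −0.28.

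*Dock8* differed between the prefixes by −0.15 (SE 0.08, edgeR adjusted *P* = 0.971), from 594 CPM to 534 CPM. *Dock4* gave the widest estimate, −0.32 (SE 0.17, edgeR adjusted *P* = 0.965). For *Dnmbp* the difference was −0.0034 (SE 0.13) and for *Carmil1* −0.10 (SE 0.16). The 95% intervals, which are not adjusted, included 0 for all tested genes described here but *Dock10* and *Dock11*. For *Dock8*, *Dock10* and *Dock11* every 400 library lay below every 394 library, as was so for 13.5% of all genes, and for the other 6 genes the values overlapped. Library 394_2 had the highest GA value of 6 of the 9 tested genes, and without it the differences of *Dock2*, *Dock4* and *Dnmbp* turned to 0.025, 0.020 and 0.061. That of *Dnmbp* also turned without 400_1 (0.035) or 400_2 (0.019), and that of *Carmil1* without 400_1 (0.0085). Without 394_2 the difference was −0.10 for *Dock8*, −0.04 for *Elmo1* and −0.41 for *Dock1*. Without 394_1 it was −0.21 for *Dock8*, −0.18 for *Elmo1* and −0.07 for *Dock1*. With all libraries these were −0.15, −0.11 and −0.25.

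**Figure D3:**
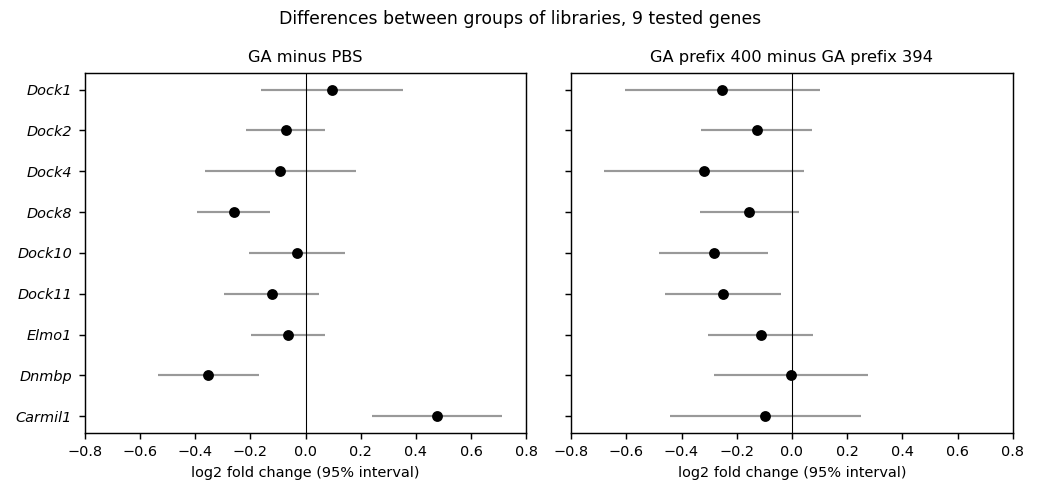
Log2 fold change with 95% interval for the 9 tested genes, GA minus PBS on the left and, within GA, prefix 400 minus prefix 394 on the right. On the left *Dock8* and *Dnmbp* lie below 0 and *Carmil1* above it with intervals clear of 0, which selected them, and on the right all 9 points lie below 0.

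Variation from library to library within treatments was compared between the genes. After the group means were subtracted from log2 CPM, Pearson's r over the 10 libraries had a median of 0.33 in the 36 pairs of tested genes and was above 0 in 33, or 91.7%. Over all pairs of tested genes with a mean of at least 10 CPM, the median was 0.0014 and 50.1% were above 0. The values describe these libraries, since all genes share depth and normalization. *Dock8* followed *Dock11* (r = 0.84), *Dock10* (r = 0.80) and *Elmo1* (r = 0.78). *Dock2* followed *Elmo1* (r = 0.75), *Dock4* (r = 0.74) and *Dock10* (r = 0.74). *Dnmbp* followed *Dock8* with r = 0.58 and ran opposite to *Dock1* (r = −0.60), and *Dnmbp* and *Carmil1* gave r = 0.10. Differences between the GA prefixes remain in these values. With the means of the 3 prefixes subtracted instead, the median was 0.13, with 23 of 36 pairs above 0 and 50.2% over all gene pairs. *Dock8* then gave r = 0.67 with *Dock11*, 0.56 with *Dock10*, 0.70 with *Elmo1* and 0.80 with *Dnmbp*.

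**Figure D4:**
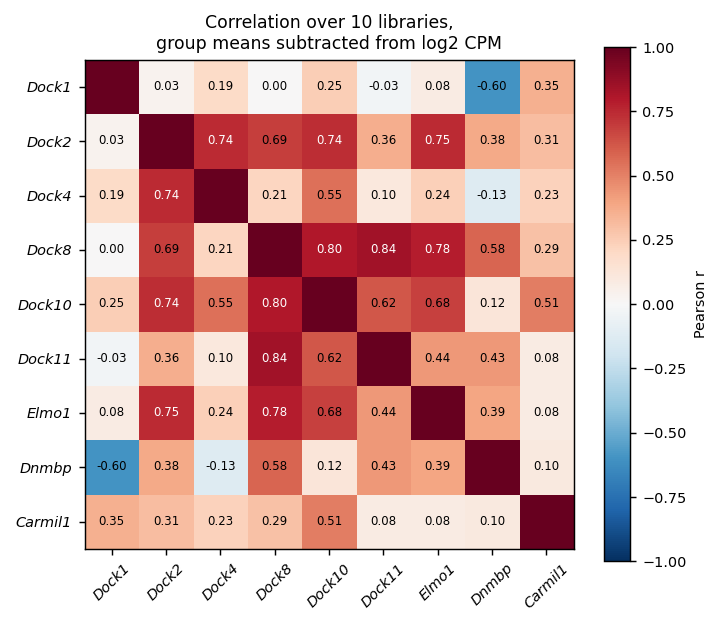
Pearson's r over 10 libraries for each pair of the 9 tested genes after group means were subtracted from log2 CPM, red for positive and blue for negative. *Dock2*, *Dock8*, *Dock10* and *Elmo1* form a red block, and *Dock1* with *Dnmbp* is the most negative pair at −0.60.

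Among 8692 tested genes with a mean of at least 10 CPM, those whose pattern was most like that of *Dock8* were *Banp* (r = 0.97), *Rbm47* (r = 0.95) and *Kansl1* (r = 0.93). For *Dnmbp* they were *Ercc5* (r = 0.95), *Aig1* (r = 0.95) and *Arid5b* (r = 0.94). For *Carmil1* they were *Ranbp3* (r = 0.93), *Trim33* (r = 0.90) and *Ubr1* (r = 0.89). All are Pearson's r over the same 10 libraries with group means subtracted. They are the highest values out of all these genes and were not tested. The value for *Trim33* was lower by rank, with a Spearman rank correlation of 0.49.

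The rest of the pathway was read from 6 lists with 113 genes, of which 95 passed the filter on low counts. In edgeR's test of GA against PBS, 0 of the 95 had an adjusted *P* under 0.05, 7 had an unadjusted *P* under 0.05, 45 were higher and 50 lower, and DESeq2 and limma-voom called 0 of them. The share at an unadjusted *P* under 0.05 was 7.37%, against 5.75% of all genes. None of the 95 had groups without overlap in either direction.

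The other DOCK and ELMO genes had 5 higher and 2 lower of 7 tested, with a median log2 difference of 0.02. *Elmo2*, the second ELMO scaffold, measured 109 ± 3.40 CPM in PBS and 119 ± 9.96 CPM in GA (SD, n = 5 each), a log2 difference of 0.13. *Dock9*, a Cdc42 activator, differed by 0.02, and *Elmo3* by 0.74 at a mean of 0.793 CPM in PBS and 1.33 CPM in GA. Adaptors of the DOCK1 pathway had 3 higher and 4 lower of 7 tested. *Rhog*, the GTPase that recruits ELMO, measured 259 CPM in PBS and 229 CPM in GA (log2 difference −0.18, edgeR adjusted *P* = 0.854). *Nedd9*, a docking protein of the CAS family, measured 5.68 CPM in PBS and 7.79 CPM in GA (log2 difference 0.46, edgeR adjusted *P* = 0.859).

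Dbl-type exchange factors, the group of *Dnmbp*, had 19 higher and 26 lower of 45 tested, and 4 had an unadjusted *P* under 0.05, all lower. The most abundant genes of the list were *Fgd2*, a Cdc42 activator, at a log2 difference of 0.12, and *Vav1*, the haematopoietic Rac activator, at −0.04.

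WASP and WAVE assembly factors had 5 higher and 9 lower of 14 tested. *Cyfip1* and *Nckap1l*, subunits of the WAVE complex, differed by 0.03 and 0.0099, and *Wipf2*, a WASP-binding protein, by −0.53 (SE 0.23, edgeR adjusted *P* = 0.854). Subunits of the Arp2/3 complex had 7 higher and 3 lower of 10, with *Arpc1b* and *Arpc2* both at 0.02. Capping proteins and CARMIL genes, the group of *Carmil1*, had 6 higher and 6 lower of 12, with a median of 0.0045. *Capza2* and *Capzb*, subunits of the capping protein that CARMIL1 binds, both differed by −0.06, and *Twf1*, an actin monomer and capping protein binder, by 0.17.

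**Figure D5:**
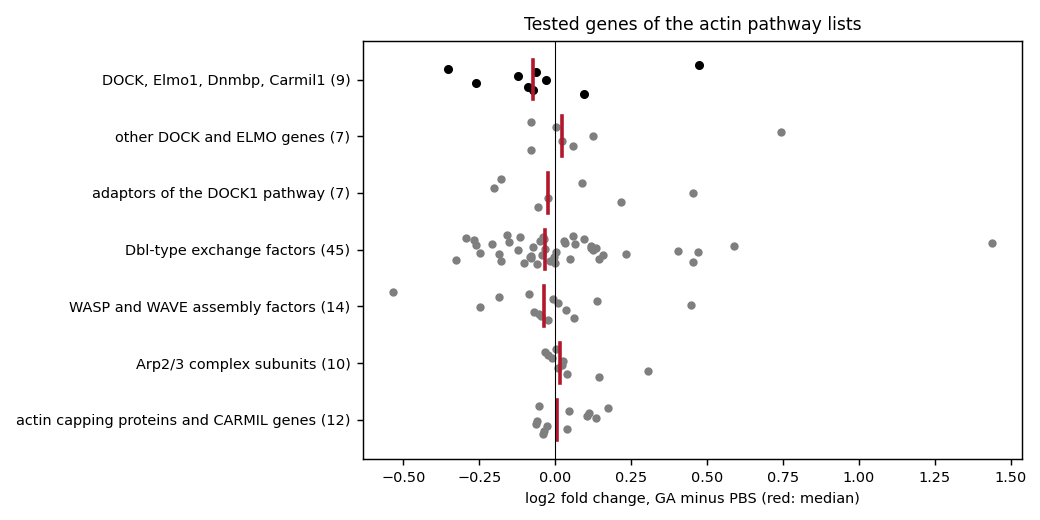
Log2 fold change, GA minus PBS, of each tested gene in the 6 pathway lists (grey) and of the 9 tested genes described here (black), with list medians in red and the number of genes in brackets. The list medians lie near 0, between −0.04 and 0.02, and the point at 1.44 is *Plekhg4*, a gene near 1 CPM.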

How the data were processed

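RNA from sorted hippocampal microglia was pre-amplified with the SMARTer kit and made into Nextera XT libraries. The authors deposited raw counts of reads per gene for 10 libraries. The submitters' processing notes name bcl2fastq 2.19.0, fastp 0.20.0, STAR 2.7.0f, Subread 1.6.4, featureCounts and build GRCm38.p6. The strand setting is not given in the sources used here. Table columns were matched to samples by title, and 0 columns were left without a sample. Reads carry no molecular identifiers, so counting errors cover counting only. A chi-square comparison of all library pairs found no duplicated library.

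The filter on low counts (filterByExpr, minimum count 10) left 14481 of 55453 genes. After TMM normalization they entered edgeR 4.0.16 (quasi-likelihood test, Benjamini-Hochberg over all tested genes, threshold 0.05) in R 4.3.3. GA was compared with PBS in one fit, and prefix 400 with 394 in a fit of 3 groups. RPKM used merged GENCODE M21 exons. Levels of neighbouring genes were compared by exact sign-flip permutation tests on log2 (RPKM + 0.1). The scripts were tested on simulated data. Alternatives were DESeq2 1.42.0, limma-voom (limma 3.58.1), DESeq2 size factors, robust fits, other filters, other lengths and pseudocounts, each library left out, and either GA prefix alone. Subtracting prefix means before correlation, and DOCK shares by longest transcript, were added after seeing the data. Figures used Python 3.11.15 with matplotlib 3.10.9.

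The genes described, the pathway and marker lists and the tests were chosen with earlier results of these data known. Named were the 10 genes, from each list the 2 tested genes with the highest mean CPM and the 2 with the largest log2 difference at a mean of at least 1 CPM, and the 3 genes most like *Dock8*, *Dnmbp* and *Carmil1*. *Plekhg4* and the called genes were named after their values were seen. Not every gene that the rule named is printed. A list of the pathway and a detail of the genotype are not reported here.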

Additional observations from a re-analysis of the deposited data

Results flagged for a closer look

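In 5 of 20 groups of 5 libraries (10 genes in PBS and in GA), a single library stood apart by Dixon's ratio, the gap to its neighbour divided by the range of the group, against a critical value of 0.71. Chance alone gives about 1 group in 20. *Dock2* in PBS was lowest in 388_3, at 459 CPM (ratio 0.768). *Dock4* in GA was highest in 394_2, at 425 CPM (ratio 0.726). *Carmil1* in GA was lowest in 400_1, at 14.3 CPM (ratio 0.720). *Dock5* was highest in 388_3 in PBS, at 25 reads (ratio 0.740), and in 400_3 in GA, at 14 reads in 1 of 5 libraries (ratio 1). With the other 4 libraries at 0, that ratio is fixed, and without *Dock5* 3 of 18 groups stood out. The cause of these values was not tested.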

How the results depend on the processing

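No paired analysis was possible because the last digits of the titles repeat within the GA group and follow the title prefixes, so they pair no GA library with a PBS library. None of the 10 genes was called under any alternative that tested it. *Dock5* was tested only in DESeq2 and with no filter on low counts. Genes called between GA and PBS numbered 0 in edgeR, 2 in DESeq2 (*Dcstamp* and *Gm1070*) and 0 to 1 with single libraries left out, the 1 being *Gm15920* without 394_1. Between prefixes 400 and 394 there were 2 (*Myc* and *Fkbp5*), 73 with DESeq2, 81 with no filter on low counts, and 0 to 7 with single libraries left out, 0 without 394_1, 1 without 388_2, 388_5 or 400_2, and 7 without 388_4. With single libraries left out, the GA minus PBS log2 difference of *Dock8* ran from −0.30 to −0.23, of *Dnmbp* from −0.38 to −0.29 and of *Carmil1* from 0.43 to 0.54. That of *Dock1* ran from 0.0095 (without 394_1) to 0.16, of *Dock2* from −0.13 (without 394_2) to −0.04, of *Dock4* from −0.23 (without 394_2) to −0.03, of *Dock10* from −0.10 (without 394_2) to 0.0065, of *Dock11* from −0.17 to −0.08 and of *Elmo1* from −0.10 to −0.03. Between prefixes, directions turned for *Dock2* and *Dock4* without 394_2, for *Dnmbp* without 394_2, 400_1 (0.035) or 400_2 (0.019), and for *Carmil1* without 400_1: *Dock2* ran from −0.26 to 0.025, *Dock4* from −0.59 to 0.020, *Dnmbp* from −0.068 to 0.061 and *Carmil1* from −0.17 to 0.0085. With no filter *Dnmbp* was at 0.0075. With the longest transcript as length, *Dock8* minus *Elmo1* turned to −0.66. Without subtraction of group means, likeness to *Dock8* was 0.40 for *Kansl1* and 0.72 for *Rbm47*, likeness to *Dnmbp* 0.74 for *Ercc5*, and likeness to *Carmil1* 0.30 for *Trim33*, 0.55 for *Ubr1* and 0.71 for *Ranbp3*. With PBS libraries alone 0 of 9 neighbour pairs could pass, since the smallest exact *P* is 0.0625. The cause was not tested. With 2 libraries in prefix 394, leaving one out assumes that the other varies like the other groups.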
